A study of Homo sapiens with 7 samples.

Results

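Distal intergenic pThr4 regions were places far from any annotated gene where a chromatin immunoprecipitation sequencing (ChIP-seq) library had a peak for RNA polymerase II phosphorylated on threonine 4 of its C-terminal repeat. The peaks of 6 libraries on chromosomes 1 to 22 and X were merged wherever they shared at least 1 bp, which gave 41740 regions. A region was kept when it lay more than 10 kb from every gene of any biotype in the RefSeq GRCh38 gene table. This left 3051 regions, 7.31% of the total (95% exact binomial interval 7.06 to 7.56%, which covers counting error only). Another 32256 regions (77.3%) overlapped a gene, and 6433 (15.4%) lay beside a gene at up to 10 kb. The members were thus chosen by the presence and position of a peak. Every count of members, lists and gene sides below is a description with no test.

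The libraries came from HEK293, an established human embryonic kidney epithelial cell line. Matched aliquots of nuclear lysate were treated in vitro with active SCP1 phosphatase (SCP1_WT, 3 libraries) or with catalytically inactive SCP1 carrying D96A (SCP1_D96A, 3 libraries). All 6 were fixed with formaldehyde and precipitated with the pThr4 antibody 6D7. The treatment acted on lysate of a single cell line and not on living cells, and the 1 IgG control library was not analysed here.

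The C-terminal domain of the largest RNA polymerase II subunit is a tail of repeated heptads whose serines and threonines are phosphorylated in turn as the enzyme moves along a gene. Threonine 4 phosphorylation is best known from the 3′ ends of genes, where polymerase continues past the polyadenylation site before it is released. SCP1 is a phosphatase that removes phosphate from serine 5, next to threonine 4, and the study asked where a phosphorylated serine 5 hides threonine 4 from the antibody. Polymerase found far from genes can be running past a gene end or transcribing an enhancer or an unannotated RNA, and peaks alone do not tell these apart.

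The lists differed greatly in length before any comparison. The SCP1_WT libraries had 12625, 6680 and 36892 peaks, and the SCP1_D96A libraries had 2466, 1163 and 2699. SCP1_WT replicate 3 stood apart from all others. The peak names of replicate 3 in both groups carried another mark (5) than those of replicates 1 and 2 (10). The meaning of that mark is not given in the sources used here. The weakest listed peak also differed, from a −log10 p-value of 3.08 in SCP1_WT replicate 3 to 4.6 in SCP1_D96A replicate 2. Read depth was unknown. The main descriptions that rest on SCP1_WT replicate 3 are also given from a merge of the other 5 lists, which had 452 distal regions among 15055 (3.00%).

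Distal space was sparsely occupied. Bases more than 10 kb from a gene made up 945 Mb, 31.2% of the span covered by genes and the intervals between them. They held 3.23 regions per Mb, against 15.6 per Mb in the 10 kb beside genes and 19.3 per Mb in genes. SCP1_WT replicate 3 alone had 2.86 per Mb in distal space and the other libraries 0.0317 to 0.322. Without it the merged densities were 0.478, 6.26 and 7.19 per Mb. Unassembled bases were not taken out of any of these spaces. Most members stayed close to the limit. The median distance to the nearest gene end was 23.7 kb, with quartiles at 14.5 and 47.0 kb. There were 1251 members (41.0%) at 10 to 20 kb, 1098 (36.0%) at 20 to 50 kb, 445 at 50 to 100 kb, 189 at 100 to 200 kb, 49 at 200 to 500 kb and 19 farther away. Without SCP1_WT replicate 3 the median was 24.0 kb, and 191 members (42.3%) were at 10 to 20 kb and 141 (31.2%) at 20 to 50 kb. The members were narrow, with a median width of 524 bp (quartiles 318 and 911 bp) against 800 bp (410 and 1358 bp) for the other 38689 regions. In the merge without SCP1_WT replicate 3 the medians were 364.5 and 797 bp. The region nearest the limit from inside lay on chr17:1410275-1410689, 10004 bp downstream of CRK, which encodes a signalling adaptor. It had a fold enrichment of 2.85 in SCP1_WT replicate 3 alone. Another lay 10004 bp downstream of the pseudogene HAUS1P2 on chrX:18876755-18877054, with 3.22 in the same library. Just outside the limit were regions 9991 bp downstream of ZNF14 (4.05 in SCP1_WT replicate 1) and 9988 bp downstream of MRPS18CP7 (3.70 in SCP1_WT replicate 3).

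Nearly all members were seen in a single library. There were 2938 members (96.3%) in 1 list, 82 in 2 lists, 18 in 3, 6 in 4, 4 in 5 and 3 in all 6. Among all 41740 regions 79.3% were in 1 list. The 113 members in at least 2 lists were 3.70% of the members, against 20.7% of all regions. SCP1_WT replicate 3 alone supplied 2609 members (85.5%), against 67.4% of all regions. The share of a list's regions that had a peak in another list was lower for distal than for other regions in all 6 lists. It was 28.9% against 69.1% in SCP1_WT replicate 1, 38.9% against 84.0% in replicate 2 and 3.37% against 24.6% in replicate 3. In the SCP1_D96A libraries it was 54.3% against 94.4%, 70.0% against 98.4% and 46.3% against 94.0%. At a −log10 p-value of at least 6, where 12 to 27 distal regions were left per list, the shares were 60.0% against 77.7%, 91.7% against 85.4% and 18.5% against 64.6% in SCP1_WT. They were 84.6% against 92.2%, 72.7% against 93.9% and 83.3% against 92.2% in SCP1_D96A, so SCP1_WT replicate 2 then went the other way. Without SCP1_WT replicate 3, 46 of the 452 members (10.2%) were in at least 2 lists, against 30.9% of all regions.

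The regions of SCP1_WT replicate 3 alone were weak. Only 13 of the 2609 reached a −log10 p-value of 6. In 988 of them (37.9%) the value lay below the weakest peak listed for SCP1_WT replicate 1, and in 65.0% below the weakest of replicate 2. The shares below the weakest listed peak of the SCP1_D96A libraries were 84.7%, 92.7% and 83.9%. Matching shares over all regions found in SCP1_WT replicate 3 alone are not given. That list was weak as a whole. Its median −log10 p-value was 3.62 for distal and 3.85 for other peaks. Both medians lay below the weakest listed peak of every SCP1_D96A library, so low values were not particular to distal regions.

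Gene-free intervals of very unequal length held the members. Intervals of up to 1 Mb between neighbouring genes held 2970 members, and 30 longer intervals held 79. The remaining 2 lay beyond the last gene of a chromosome. The long intervals include those that span centromeres, such as chr1:121571889-143299517, where the assembly holds satellite repeats. The repeat content of the members was not analysed here. The long intervals held 0.448 members per Mb and the shorter ones 3.86, but the long ones include the starts of chromosomes 13, 14, 15, 21 and 22 (63.4 Mb with no member). These short arms are largely unassembled in GRCh38, so no peak could be called in much of that length. In the long intervals 20 of the 79 members (25.3%) were in at least 2 lists, against 93 of 2970 (3.13%) in the shorter ones. In the merge without SCP1_WT replicate 3 these numbers were 19 of 31 and 27 of 421. Of the 13 members in at least 4 lists, 8 lay in a long interval. The boundary of 1 Mb was chosen after the values were seen.

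As deposited, the active SCP1 lists held more distal peaks than the inactive ones. The SCP1_WT lists held 304, 108 and 2700 distal peaks and the SCP1_D96A lists 35, 30 and 41. The groups did not overlap. The ratio of geometric means was 12.7, and between libraries with the same replicate number the ratio ran from 3.60 to 65.9. On the log2 scale the ratio of geometric means was 3.67, and 2.39 without SCP1_WT replicate 3. As a share of the list the groups were not separated. Distal peaks made up 2.41%, 1.62% and 7.32% of the SCP1_WT lists and 1.42%, 2.58% and 1.52% of the SCP1_D96A lists, and these ranges overlapped. The means were 3.78% ± 3.09 (SD, n = 3) and 1.84% ± 0.643 (SD, n = 3). They lay 1.94 percentage points apart, and 0.204 apart without SCP1_WT replicate 3.

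**Figure D1:**
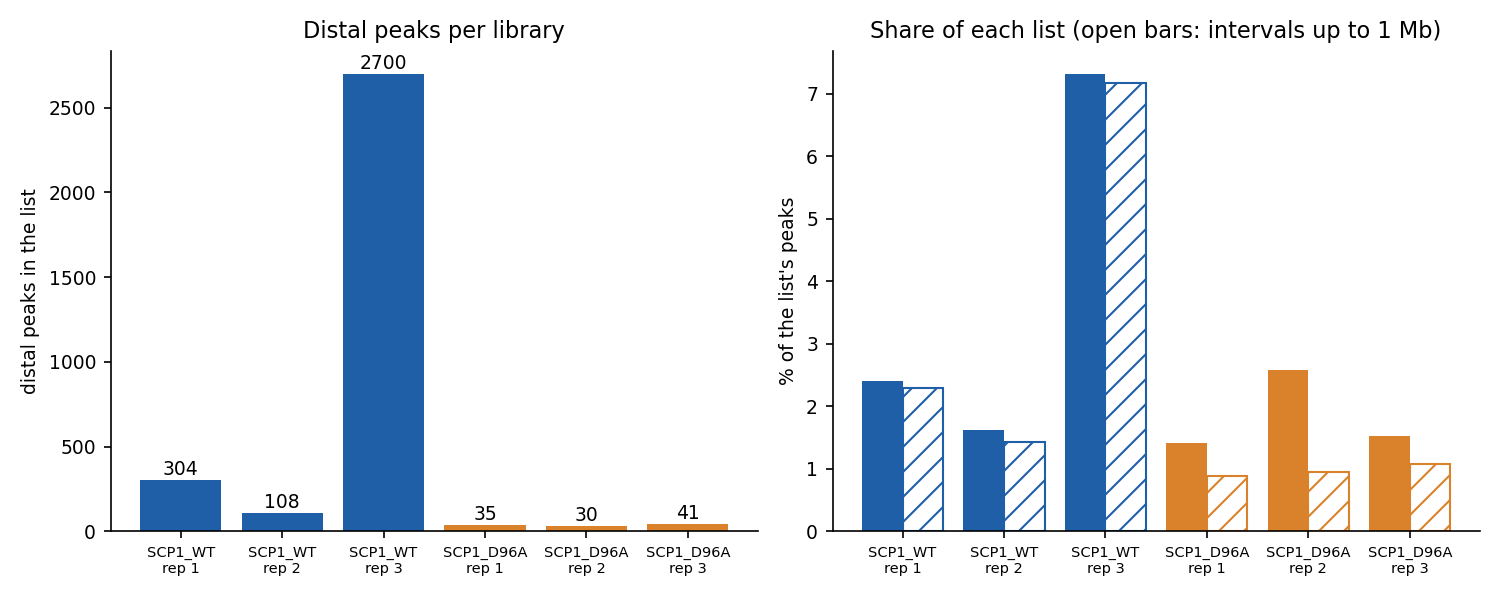
Distal peaks in each of the 6 libraries, as a number (left, vertical axis in peaks) and as a percentage of all peaks of the same list (right). Blue bars are SCP1_WT, orange bars SCP1_D96A, and open hatched bars leave out gene-free intervals over 1 Mb. Numbers run from 108 to 2700 in SCP1_WT and from 30 to 41 in SCP1_D96A, while the filled share of SCP1_D96A replicate 2 (2.58%) lies above those of SCP1_WT replicates 1 and 2.

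The shares stood apart once the long intervals were set aside. Those intervals held 14, 13 and 54 distal peaks of the SCP1_WT lists and 13, 19 and 12 of the SCP1_D96A lists. That was 4.61%, 12.0% and 2.00% of the distal peaks of the SCP1_WT libraries and 37.1%, 63.3% and 29.3% of those of the SCP1_D96A libraries. In the intervals of up to 1 Mb the counts were 290, 95 and 2644 for SCP1_WT and 22, 11 and 29 for SCP1_D96A. The corresponding shares of 2.30%, 1.42% and 7.17% were all above the SCP1_D96A shares of 0.892%, 0.946% and 1.07%.

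Among stronger peaks, with the long intervals counted, the order of the groups changed. At a −log10 p-value of at least 6 the SCP1_WT lists had 14, 12 and 27 distal peaks and the SCP1_D96A lists 12, 22 and 12, so the counts overlapped. As a share of all peaks past this value, distal peaks were lower in every SCP1_WT library (0.843%, 0.977% and 1.28%) than in any SCP1_D96A library (1.47%, 3.96% and 1.45%). Most of these SCP1_D96A peaks lay in the long intervals. Outside the long intervals 4, 3 and 23 distal peaks past this value remained in SCP1_WT and 2, 5 and 2 in SCP1_D96A. Those counts overlapped, and their shares of all peaks past this value are not given. With every list reduced to its strongest 1163 peaks, the length of the shortest, the SCP1_WT lists held 12, 12 and 7 distal peaks and the SCP1_D96A lists 15, 30 and 15. SCP1_D96A replicate 2 was that shortest list, so all 30 of its distal peaks entered, 19 of them in the long intervals. The split by interval length is not given for the other lists at this setting. The groups again did not overlap, but in the opposite order, and the log2 ratio was −0.91 in place of 3.67. The difference in share was also negative at distances over 50 kb (−0.303 percentage points) and at a −log10 q-value of at least 2 (−0.333). The higher number of distal peaks in SCP1_WT thus held for the lists as deposited and not at equal list length.

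Only 3 members had a peak in all 6 libraries (0.0983%, against 1.96% of all regions). The first, chr13:91365338-91367218, began 10761 bp downstream of MIR17HG (gene 407975), the noncoding host transcript of an oncogenic microRNA cluster. Its fold enrichments were 3.65, 4.56 and 4.26 in SCP1_WT and 3.57, 4.12 and 4.22 in SCP1_D96A. The −log10 p-values were 4.63, 6.73 and 6.26 in SCP1_WT and 4.51, 5.67 and 5.74 in SCP1_D96A. The groups overlapped in both measures. The second, chr19:30051002-30053919, lay 12609 bp downstream of TAF9P3, a pseudogene of a TFIID subunit. It had fold enrichments of 2.98, 2.84 and 3.51 in SCP1_WT and 3.12, 2.97 and 3.21 in SCP1_D96A, which also overlapped.

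The third was of another kind. It lay at chr17:26619561-26620142 inside a gene-free interval of 4.28 Mb, 361550 bp from the pseudogene LOC100422478. Its fold enrichments were lower, at 1.66, 1.76 and 1.52 in SCP1_WT and 1.91, 1.85 and 1.81 in SCP1_D96A, but its −log10 p-values were higher, at 12.1, 15.7 and 8.50 and at 18.7, 19.7 and 14.5. Every SCP1_D96A fold enrichment here was above every SCP1_WT one. The median fold enrichment of the other peaks of each list was 3.86, 3.89 and 3.85 in SCP1_D96A and 3.39, 3.53 and 3.12 in SCP1_WT. Those medians had the same order, but they come from lists with different weakest peaks and not from matched regions. The other members in all 6 libraries overlapped between the groups. In the members in 5 lists named next, every listed SCP1_D96A fold enrichment was above every listed SCP1_WT one.

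Regions of this kind, with low fold enrichment and a very small p-value, recurred across libraries. The member at chr1:125180049-125180408, the farthest of all from a gene (3608161 bp from EMBP1), was in 5 lists. Its fold enrichments were 1.61 and 1.68 in SCP1_WT replicates 1 and 2 and 1.84, 2.04 and 1.80 in SCP1_D96A. Its −log10 p-value of 103 in SCP1_D96A replicate 2 exceeded the highest among all other peaks of that list, 66.3. Also in 5 lists were chr16:46389894-46391443 and, on chromosome 17, chr17:26881240-26881556 and chr17:26885317-26885895, all missing from SCP1_WT replicate 3. Their fold enrichments lay between 1.34 and 2.37. The other pair of farthest members, 3546311 and 3493989 bp from EMBP1, had a peak only in SCP1_WT replicate 3.

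Distal peaks with a fold enrichment under 2.5 and a −log10 p-value of at least 10 numbered 5, 7 and 0 in SCP1_WT and 8, 10 and 7 in SCP1_D96A. Among all other peaks each list had 1. Most lay in the long intervals, but chr16:34587205-34588338, in an interval of 0.546 Mb beyond the lncRNA LOC102724523, was similar. It had fold enrichments of 1.55 in SCP1_WT replicate 2 and 1.88, 1.75 and 1.75 in SCP1_D96A, and −log10 p-values of 13.1, 54.6, 37.2 and 29.4. SCP1_WT replicate 3, the longest list, had none of these peaks although it had 54 peaks in the long intervals.

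**Figure D2:**
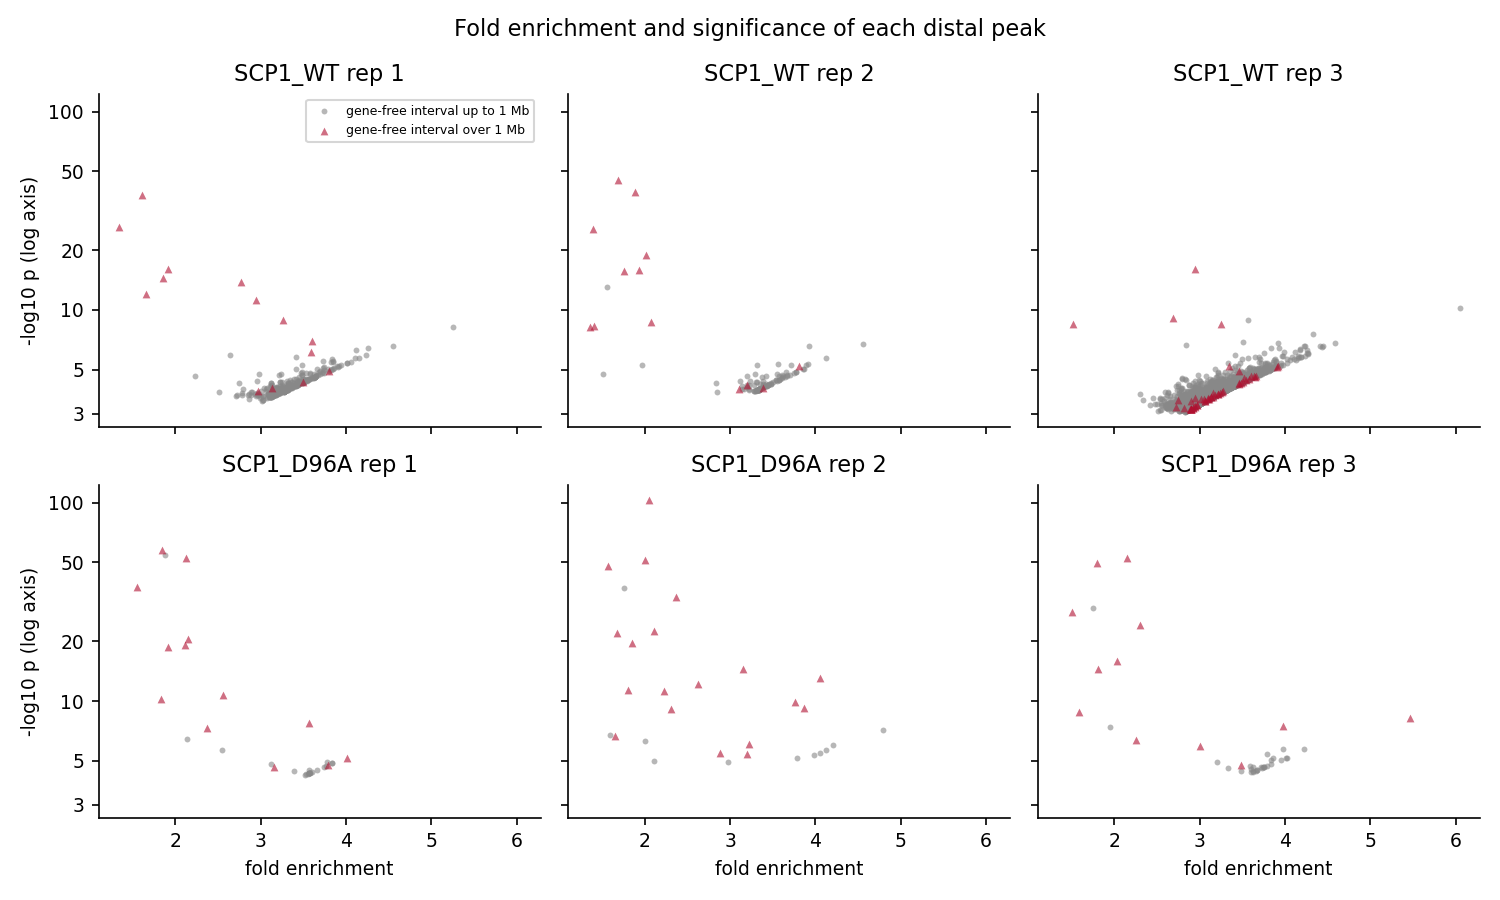
Fold enrichment (horizontal, ratio) against −log10 p-value (vertical, log axis) for each distal peak, 1 panel per library. Grey points lie in gene-free intervals up to 1 Mb and red triangles in longer ones. In all libraries but SCP1_WT replicate 3 a set of mostly red peaks has fold enrichments under 2.5 and −log10 p-values from 10 up to 103, apart from the grey cloud.

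A peak in all SCP1_WT libraries and in no SCP1_D96A library was found for 14 members (0.459%), against 3.98% of all regions. The number was 22 without SCP1_WT replicate 1, 68 without replicate 2 and 19 without replicate 3. It was 30, 5 and 1 at distances over 5, 20 and 50 kb. Matching counts over all regions are not given for these settings. Of the 14, 13 lay in intervals of up to 1 Mb, and 10 of them were downstream of the nearest gene, 2 upstream and 1 of unknown side. The 5 with the highest minimum fold enrichment are given in turn. At chr3:31648152-31649009, 10536 bp downstream of STT3B, a catalytic subunit of the enzyme that attaches N-glycans to proteins, the fold enrichments in SCP1_WT replicates 1 to 3 were 3.71, 3.61 and 4.44. At chr15:34120743-34122971, 12057 bp downstream of PGBD4, a gene derived from a piggyBac transposon, they were 3.52, 3.42 and 3.71. At chr22:25519831-25521136, 39752 bp downstream of the antisense lncRNA GRK3-AS1, they were 3.69, 3.65 and 3.40.

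At chr21:15895579-15897094, 15515 bp downstream of USP25, a ubiquitin-removing enzyme, the fold enrichments were 3.37, 3.48 and 4.17. At chr4:24506863-24509284, 10908 bp downstream of the microRNA gene MIR573, they were 3.92, 3.48 and 3.30. The same pattern was found 11913 bp downstream of ZNF207, a mitotic spindle protein, 34863 bp downstream of KCNV2, a potassium channel subunit, and downstream of the lncRNAs LINC01022 and LINC00662. It was also found 14211 bp downstream of LARP4B, an RNA-binding protein of translation. That region, chr10:786719-792703, was the widest member at 5985 bp, with fold enrichments of 3.21, 3.91 and 3.13. The next widest, 3858 bp near LINC01451 and 3449 bp near RAC1P4, were in SCP1_WT replicate 3 alone. None of the 14 was left when peaks needed a −log10 p-value of at least 6, a setting without a matching count over all regions.

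The opposite pattern was rarer. There were 52 members in SCP1_D96A lists only (1.70%), against 0.8% of all regions. A single member (0.0328%) had a peak in all SCP1_D96A libraries and in no SCP1_WT library, against 0.0024% of all regions, and it was the only such region of the series. It lay at chr10:41881529-41882694, 266625 bp from the pseudogene KSR1P1 in a long interval, with fold enrichments of 3.16, 3.20 and 3.49. A peak in at least 1 library of each group was found for 25 members (0.819%), against 2826 of all 41740 regions. In intervals of up to 1 Mb there were 12 such members. Of these, 10 were downstream of the nearest gene, none upstream and 2 of unknown side. They included chr13:45300797-45301081, 15904 bp downstream of GTF2F2, a subunit of the initiation factor TFIIF, with 2.94 in SCP1_WT replicate 3 and 4.01 in SCP1_D96A replicate 3.

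Members found in more than 1 library lay mainly beyond the 3′ ends of genes. The side of the nearest gene was known for 82.0% of the 2970 members in intervals of up to 1 Mb. Among members in 1 list, 1327 were downstream and 1036 upstream, 56.2% downstream. Among members in at least 2 lists, 62 were downstream and 11 upstream, 84.9% downstream. Of the distal bases with a known side (76.2% of them), 52.4% lay downstream of their nearest gene. With a protein-coding nearest gene, 32 members in at least 2 lists were downstream and 2 upstream (94.1%), against 56.2% of those in 1 list and 50.5% of such bases. The share downstream was 63.2%, 68.1% and 57.2% in the 3 SCP1_WT lists and 55.0%, 60.0% and 73.9% in the SCP1_D96A lists, where only 20, 10 and 23 members had a known side. Distance made little difference, with 57.6% downstream at 10 to 15 kb, 56.2% at 15 to 30 kb and 57.3% farther away. In these intervals only 8 members in at least 2 lists had no peak in SCP1_WT replicate 3. Of these, 5 were downstream and 3 of unknown side. In the merge without that library, 21 members in at least 2 lists were downstream and 3 upstream (87.5%), and 62.1% of all members.

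**Figure D3:**
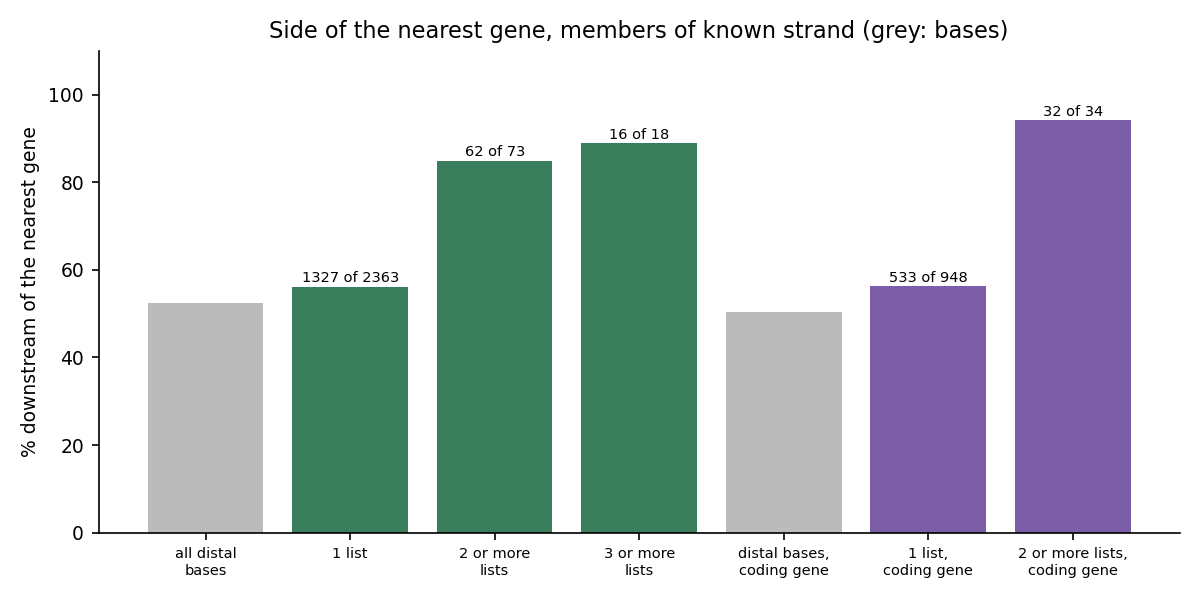
Percentage of members lying downstream of their nearest gene (vertical axis), in intervals of up to 1 Mb and with a known strand, by the number of lists. Grey bars give the same percentage of distal bases, green bars all members and purple bars those nearest a protein-coding gene, with the number downstream of the number with a known side above each bar. Members in 1 list are at 56.2%, close to the bases, and members in at least 2 lists at 84.9%, or 94.1% by a protein-coding gene.

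The 32 downstream members in at least 2 lists lay beyond 28 protein-coding genes at a median of 14.1 kb. The genes had varied roles. They included SMARCA4, an ATPase of SWI/SNF chromatin remodelling, YBX1, an RNA-binding protein, and PSMA6, a proteasome core subunit. HNRNPLL, a splicing regulator, RPN1, another N-glycosylation subunit, EXOC2 of the exocyst and GFPT1 of the hexosamine pathway were also among them. TBC1D22A, a Rab GTPase-activating protein, had 3 such members beyond its end. Members in at least 2 lists in these intervals were also closer to a gene (median 15.1 kb) and wider (median 1213 bp) than the 2970 members together (23.2 kb and 518 bp), and merging peaks of several lists by itself widens a region.

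The ground between these members and their genes was often occupied as well. The 10 kb directly beyond the gene held a region of any list for 23 of the 32 (71.9%), and the gene itself for 21 (65.6%). Among members in 1 list beside a protein-coding gene, those 10 kb held a region for 49.2% of the 533 downstream members and 24.6% of the 415 upstream members. The gene itself held one for 67.2% and 71.3%. Within a list, the nearest gene or the 10 kb facing the member had a peak for 23.1%, 21.1% and 43.5% of the SCP1_WT members. Over all edges of gene-free intervals with distal bases the shares were 8.20%, 4.83% and 23.4%. In SCP1_D96A they were 13.6%, 9.09% and 6.90% of the few members, against 1.79%, 0.774% and 1.79% of edges.

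The nearest gene was protein-coding for 993 members of the intervals up to 1 Mb (33.4%), although 20.5% of distal bases had a protein-coding nearest gene. It was an lncRNA for 1189 (40.0%, against 44.3% of bases) and a pseudogene for 709 (23.9%, against 32.0%). A microRNA gene was nearest for 40 (1.35%, against 1.31% of bases), a snoRNA gene for 24 (0.808%, against 1.42%) and a snRNA gene for 5 (0.168%, against 0.190%). Without SCP1_WT replicate 3 a protein-coding gene was nearest for 129 members (30.6%), an lncRNA for 164 (39.0%) and a pseudogene for 116 (27.6%). No member had a replication-dependent histone gene or an immediate early gene as its nearest gene, lists which border 0.0580% and 0.0112% of distal bases. A single member was nearest a D-type cyclin gene, CCND1 (0.0337%, against 0.0083% of bases). Developmental homeobox and related genes (names that begin with HOX, PAX, LHX and similar roots) were nearest to 11 members (0.370%, against 0.177% of bases), at LHX3, PAX2, PAX7, SIX2, SIX3 and the noncoding LHX1-DT, LHX5-AS1 and LHX8-AS1. None of the 11 was in more than 1 list. Genes with LINC names were nearest to 277 members (9.33%, against 9.52% of bases), at 184 genes. From the other 5 lists without SCP1_WT replicate 3 the homeobox list had 2 members, the LINC names 43 (10.2%) and the other 3 lists none.

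Within their own list, distal peaks were narrower and slightly less enriched than other peaks. The median width of distal peaks was 348.5, 404.5 and 551 bp in SCP1_WT and 344, 600 and 341 bp in SCP1_D96A, and that of other peaks between 793 and 840 bp in every list. On the log2 scale distal peaks were narrower by a mean of −0.96 (SD 0.37, n = 6), in 6 of 6 libraries. Flipping the signs of the 6 differences in every way (exact, two-sided) gave p = 0.03125, the floor of that test, and an adjusted p of 0.0469 over 3 measures. Distance was taken from the edges of merged regions, so a wide region had fewer places where it could lie more than 10 kb from a gene.

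The median fold enrichment of distal peaks was 3.28, 3.35 and 3.05 in SCP1_WT and 3.55, 2.5 and 3.63 in SCP1_D96A. That of other peaks was 3.39, 3.53 and 3.12 and 3.86, 3.89 and 3.85. The log2 ratio averaged −0.17 (SD 0.23, n = 6), lower in 6 of 6 libraries (exact sign-flip p = 0.03125, adjusted p = 0.0469). Without the intervals over 1 Mb the ratio was −0.06, with the same p in the exact sign-flip test. Without SCP1_D96A replicate 2 it was −0.07, and the exact sign-flip test over 5 libraries cannot go below 0.0625. The strongest distal peaks reached 5.26, 4.56, 6.05, 4.01, 4.80 and 5.47, against 8.62 to 15.5 among other peaks. The highest, 6.05 in SCP1_WT replicate 3 and 3.33 in replicate 2, lay 13154 bp upstream of the pseudogene SUMO2P21 at chrX:115732508-115732844.

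The median −log10 p-value was lower for distal than for other peaks in 5 of 6 libraries. It was 4.13, 4.27 and 3.62 against 4.49, 4.79 and 3.85 in SCP1_WT. In SCP1_D96A it was 4.80, 9.17 and 5.04 against 5.41, 5.91 and 5.33, so replicate 2 went the other way. The mean difference was 0.209 (SD 1.5, n = 6, exact sign-flip p = 1), and −0.401 without that library. Without the intervals over 1 Mb it was −0.505, lower in 6 of 6 libraries (exact sign-flip p = 0.03125), a setting chosen after the values were seen. With the strongest 1163 peaks of every list it went the other way, at 3.46 with the same exact p, and at a −log10 p-value of at least 6 it was 5.50 (exact sign-flip p = 0.0625). Both of these settings first chose peaks by strength, the quantity then compared, so their p-values describe only the peaks kept. The direction of this difference therefore depended on the setting. In those shorter intervals the median of SCP1_D96A replicate 2 was 5.67.

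**Figure D4:**
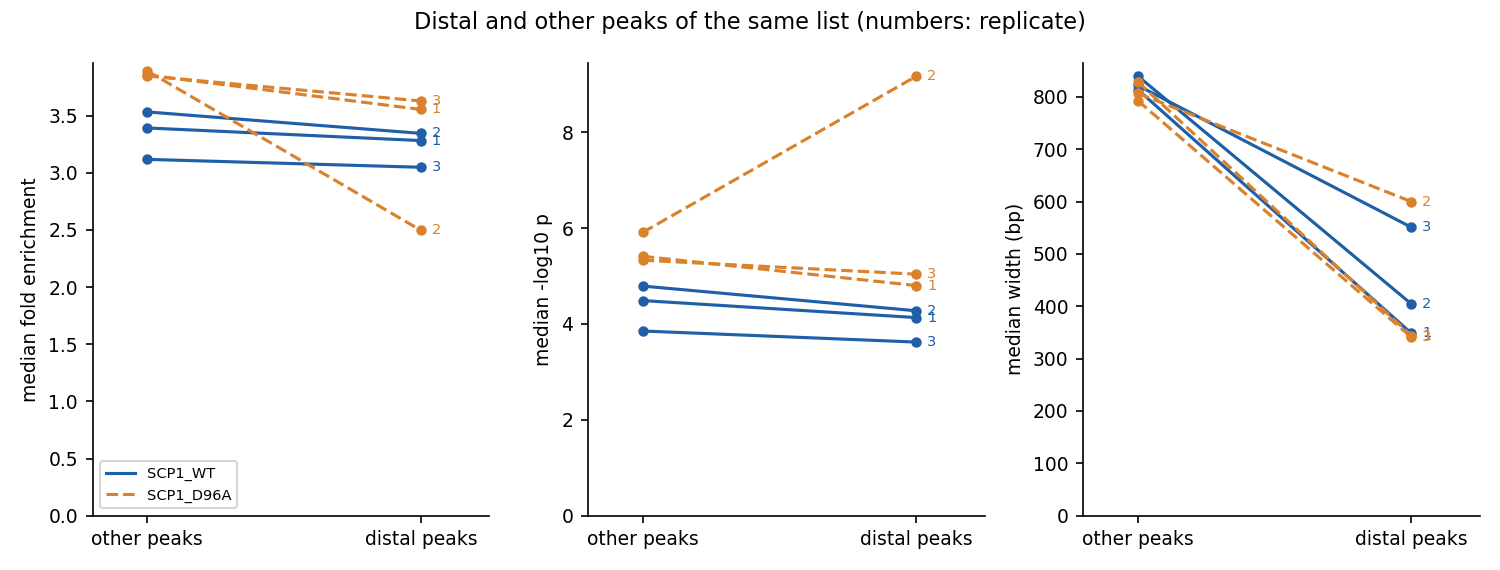
Median fold enrichment (ratio), −log10 p-value and width (bp) of other and distal peaks of each list, joined by a line per library. Solid blue lines are SCP1_WT, dashed orange lines SCP1_D96A, and the small numbers give the replicate. Width and fold enrichment are lower for distal peaks in all 6 libraries, and SCP1_D96A replicate 2 alone rises in −log10 p-value, from 5.91 to 9.17.

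Between the treatments, the within-list ratio of fold enrichment stood apart and the other measures overlapped. The log2 ratio was −0.05, −0.08 and −0.03 in SCP1_WT, each above the −0.12, −0.64 and −0.08 of SCP1_D96A, of which the nearest pair were −0.0787 and −0.0844. The SCP1_WT minus SCP1_D96A difference was 0.23 (exact permutation p = 0.1, adjusted p = 0.3). It was −1.15 in −log10 p-value (exact permutation p = 0.8) and 0.020 in the log2 ratio of width (exact permutation p = 0.9). With 3 libraries against 3 the test cannot go below 0.1, so no difference could pass 0.05. The fold enrichment ratio averaged −0.05 ± 0.02 (SD, n = 3) in SCP1_WT and −0.28 ± 0.31 (SD, n = 3) in SCP1_D96A. Without SCP1_D96A replicate 2 the difference was 0.05, and without the intervals over 1 Mb it was 0.02. These p-values do not show that the treatments acted alike.

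Members were spread unevenly over the chromosomes. In intervals of up to 1 Mb the density was 27.5 per Mb of distal space on chromosome 22 and 26.7 on chromosome 19, followed by 10.6 on chromosome 17 and 8.90 on chromosome 21. Chromosomes 9, 8, 11, 3, 13 and 4 were lowest, at 2.12, 1.65, 1.06, 0.913, 0.811 and 0.501 per Mb, while all others had at least 3.40. Those 6 chromosomes, singled out after their values were seen, held 32.8% of the distal space and 9.19% of the members. Their share was 9.31%, 9.47% and 9.38% in the SCP1_WT lists. In the SCP1_D96A lists it was 9.09% and 10.3% in replicates 1 and 3 and 36.4% (4 of 11) in replicate 2. Peaks of SCP1_WT replicate 3 of any location were also sparser there, at 1.05 per protein-coding gene against 2.11 elsewhere. HEK293 has an abnormal karyotype, and neither copy number nor an input library was analysed here. Their part in the densities was not tested.

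**Figure D5:**
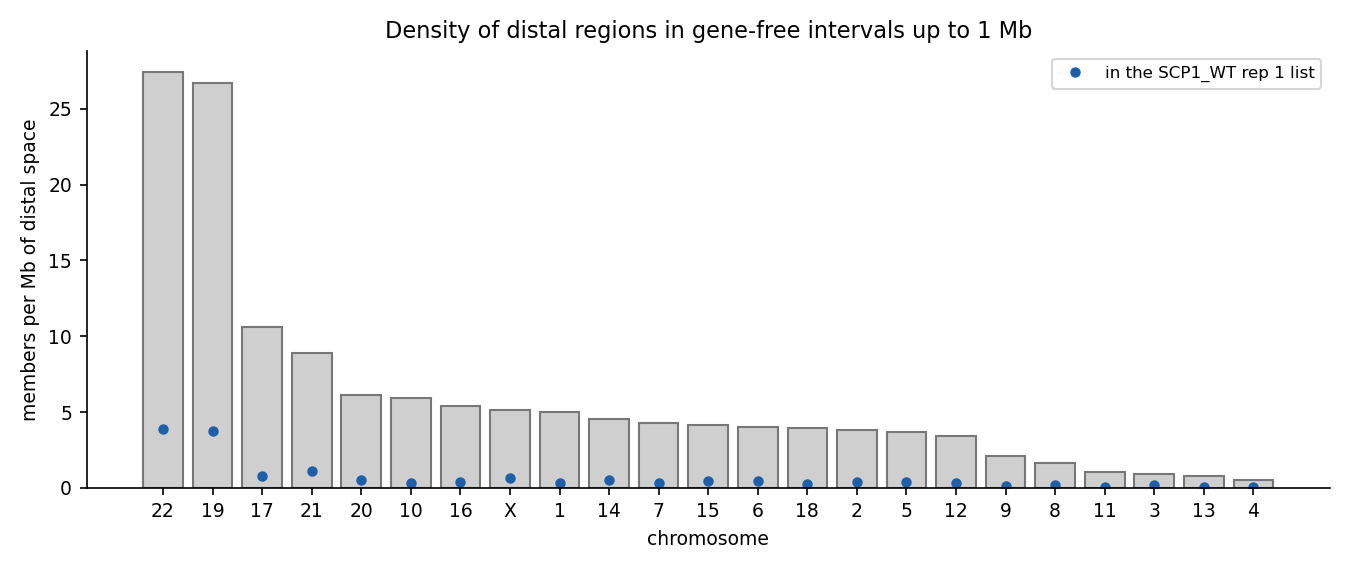
Distal regions per Mb of distal space in gene-free intervals of up to 1 Mb, by chromosome in descending order. Bars count all members and blue points those in the SCP1_WT replicate 1 list. Chromosomes 22 and 19 stand highest at 27.5 and 26.7 per Mb, and 9, 8, 11, 3, 13 and 4 lowest.

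Many members lay near another. Joined within 50 kb, the 3051 members formed 2201 clusters, of which 1705 were single members (55.9%). Clusters of at least 3 numbered 178 and held 710 members (23.3%). Of 13467 gene-free intervals longer than 20 kb, 2052 (15.2%) held a member and 209 held at least 3. Without SCP1_WT replicate 3, 377 of these intervals (2.80%) held a member and 16 held at least 3, and 79.6% of members were single. The largest clusters had 11 members each. They lay at chr22:49258176-49401115 near RPL35P8 and MIR3667HG, chr5:2133811-2291055 near LOC105374618 and LOC100506858, chr1:2834593-2992628 near LOC124903825 and ACTRT2, and on chromosome 8 between C8orf90 and LOC124902074. Another 10 members lay at chr12:34334599-34398161, in a long interval.

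These clusters belonged almost wholly to SCP1_WT replicate 3. All their members came from that list alone, except 1 of the chromosome 1 cluster, which came from SCP1_WT replicate 1, and none was in 2 lists. The cluster of 9 at chr22:47189672-47234156 beyond TBC1D22A had 3 members in at least 2 lists, with 7 members in SCP1_WT replicate 3 and 5 in replicate 1. The members of SCP1_WT replicate 1 on their own were single in 85.5% of cases, and their largest cluster had 5.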

How the data were processed

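Each deposited list held the MACS broad peaks of 1 ChIP-seq library, 3 treated with SCP1_WT and 3 with SCP1_D96A. For each peak the authors deposited a fold enrichment (a ratio over background) and −log10 values of p and q, the q-value just above 1 at its lowest, as well as a score equal to 10 times the −log10 q-value without decimals. The submitters' processing notes name FastQC, cutadapt 4.6, Bowtie2 2.5.2 and hg38. The caller's version and its control are not given in the sources used here. Read counts and depth are unknown, so precision rests on 3 replicates per group. Where a region held several peaks of a list, the highest value was taken.

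Merging, distances and exact tests were run in Python 3.11.15 (pandas 2.3.3, numpy 2.4.6, scipy 1.17.1) and tested on simulated data. Distance was the difference between the facing ends of region and gene over 59098 RefSeq GRCh38.p14 genes. Strand came from the RefSeq promoter table or, by symbol and chromosome, from GENCODE release 44, for 79.6% of genes and 98.3% of protein-coding genes; the 2 sources disagreed for 79 of 18973 genes. No GRCh38 sequence was analysed here. Distal and other peaks were compared by list medians by exact sign flips over 6 libraries and groups by exact permutation (20 assignments), both two-sided and adjusted over 3 measures. Alternatives changed the distance, gene set, overlap, peak threshold and libraries.

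The members, gene lists and tests were chosen with earlier results of these data known. Named regions were those in the most lists, those in all SCP1_WT and no SCP1_D96A lists, the largest clusters, the widest, the farthest and those nearest the limit; further regions named as examples were chosen after their values were seen.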

Additional observations from a re-analysis of the deposited data

Results flagged for a closer look

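SCP1_D96A replicate 2 lay far from the other 5 libraries in both within-list measures of strength. Its log2 ratio of median fold enrichment, distal over other peaks, was −0.64, against −0.12 to −0.03 in the others, and its gap to the nearest library took 0.860 of the whole range. Its difference in median −log10 p-value was 3.26, against −0.611 to −0.231, with a gap of 0.902 of the range. Both gaps passed Dixon's 95% limit for 6 values, which chance passes in about 1 of 20 groups. In that library 19 of 30 distal peaks (63.3%) lay in gene-free intervals over 1 Mb. In the shorter intervals its distal peaks had a median fold enrichment of 3.78 and a median −log10 p-value of 5.67.

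Peaks outside chromosomes 1 to 22 and X entered none of the comparisons. The SCP1_WT lists held 33, 20 and 96 of them, each above the highest SCP1_D96A count of 11. As shares of the lists they were 0.261%, 0.299% and 0.260% in SCP1_WT and 0.444%, 0.683% and 0.369% in SCP1_D96A, in the opposite order.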

How the results depend on the processing

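The share of regions that were distal (7.31%) followed the definition: 10.9%, 4.31% and 1.68% at distances over 5, 20 and 50 kb and 16.4% with protein-coding genes only. It was 3.29% at a −log10 q-value of at least 2, 1.93% at a −log10 p-value of at least 6, 1.76% with each list reduced to its strongest 1163 peaks (equal peak number), 2.89% with replicates 1 and 2 only, and 3.00 to 7.39% without 1 library, the low end without SCP1_WT replicate 3.

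The log2 ratio of distal peaks (3.67) was 1.91 at the q-value limit, 0.17 at the p-value limit and −0.91 at equal peak number, and ran from 2.39 to 4.69 without 1 library. The difference in distal share (1.94 percentage points) became −0.303 at 50 kb, −0.333 at the q-value limit, −1.28 at the p-value limit and −0.831 at equal peak number, was 4.65 with protein-coding genes only, and fell to 0.204 without SCP1_WT replicate 3 (up to 3.02 without another library). The cause was not tested. Of 3051 members, 14 had a peak in all SCP1_WT and no SCP1_D96A libraries. This number was 30, 5 and 1 at 5, 20 and 50 kb and 48 with protein-coding genes only. It was 0 at the q-value limit, the p-value limit and equal peak number. Without 1 library it was 14 to 68, with 22 without SCP1_WT replicate 1 and 68 without its replicate 2. Matching counts over all regions are not given for these settings.

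Lower fold enrichment and smaller width of distal peaks held their direction in all 17 alternatives each. Without 1 library the log2 ratios were −0.19 to −0.072 and −1.07 to −0.90, and with replicates 1 and 2 only −0.22 and −0.97; there the exact tests could not pass 0.05, since fewer libraries entered. The difference in −log10 p-value (0.209) was −0.165 at 5 kb, −0.161 with protein-coding genes only and −0.505 without gene-free intervals over 1 Mb. It was −0.401 to 0.373 without 1 library (negative without SCP1_D96A replicate 2). At equal peak number the −log10 p-value difference was 3.46 (exact sign-flip p = 0.03125), among peaks already chosen by strength. The difference of this measure between groups (−1.15) was 0.426 at equal peak number, 0.225 without the long intervals and −1.85 to 0.0842 without 1 library. The group difference in width (0.020) was −0.0040 at 20 kb, −0.15 with protein-coding genes only, −0.69, −0.94 and −1.50 at the q-value limit, the p-value limit and equal peak number, −0.10 without the long intervals, −0.26 with replicates 1 and 2 only and −0.14 to 0.29 without 1 library. No group difference passed 0.05, which 3 against 3 libraries cannot reach.

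Taking same-numbered libraries as pairs (replicate block) left the log2 ratio of distal peaks at 3.67, with pairs from 1.85 to 6.04, and gave exact sign-flip p-values of 0.25, 1 and 0.75 for fold enrichment, −log10 p-value and width, where 3 pairs cannot go below 0.25. Deviations in peak presence had correlations of 0.0372, −0.167 and −0.104 in same-numbered libraries over all regions. In differently numbered libraries the correlations ran from −0.0915 to 0.193. With lists of such unequal length these values cannot show whether libraries shared a lysate. The labels do not tie a replicate number to a shared lysate, so the numbers were not used as pairs. Leaving out the long intervals and using replicates 1 and 2 only were chosen after seeing the data. The unknown depth limits every comparison between lists.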
